A study of Equus caballus with 26 samples.

Results

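The arrays of the training set held whole-blood RNA of 3 horses, numbered 2, 32 and 41 in the labels, each measured before (T0) and after (T1) a 160 km endurance ride. These 6 arrays were chosen because their labels say training set, and they were 6 of the 26 arrays and 3 of the 23 horses of the series. The other 20 arrays, 7 at T0 and 13 at T1, were a validation set of horses with 1 array each. All 3 horses were geldings with the breed entry Autre (French for other). Each horse was its own control. The labels used here give no age for these 3 horses. Blood was drawn from the jugular vein at rest and straight after the ride, into PAXgene tubes, which lyse the cells and fix their RNA. The study's methods describe its horses as pure-bred or half-bred Arabians. No horse was sampled at rest over the same hours, so that the ride and the time that passed cannot be told apart. In bulk blood, fewer cells of a type and less RNA per cell cannot be told apart either.

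Whole blood mixes the RNA of neutrophils, monocytes, lymphocytes, basophils, eosinophils, platelets and red cell precursors, and long exercise is known to release neutrophils from the marrow and the vessel wall and to draw lymphocytes out of the circulation. Cortisol and adrenaline rise during such exercise, and glucocorticoids switch on a known set of leukocyte genes through their receptor. Interferon-stimulated genes, in contrast, report on antiviral signalling, and the complement protein C1q, made by monocytes and macrophages, tags dying cells and immune complexes for removal.

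A level is the log2 signal of a gene's brightest probe minus the 75th percentile of its array, so that a level of 0 is as bright as that percentile, and the change of a horse is its level at T1 minus its level at T0. Values are listed in the order of horses 2, 32 and 41. A probe is called well above background where the scanner software marked its spot so. This held for 65.8% to 72.9% of probes at T0 and for 69.2% to 74.7% at T1. Where a fold is given as at least, levels below the dimmest marked probe of an array were set to that probe's level. Such a bound holds for this scaling only. The scans of these 6 arrays took 4 days and their slides numbered 5. Precision is limited by how few arrays there are. SEs and p-values do not rest on the spread between the 3 horses alone, since limma draws the spread of each gene towards that of all genes. The SD of the 3 changes was 2.26 in *IL1R2* and 0.12 in *ABCA6*, for example, beside SEs of 0.69 and 0.31.

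The 17486 gene names tested passed the background mark on 3 or more of the 6 arrays. In limma, with each horse compared with itself, 1777 of them (10.2%) changed at an adjusted p under 0.05. Over-expressed at T1 were 1084 (6.2%), and 693 (3.96%) were under-expressed. All but 1 of these 1777 moved the same way in all 3 horses, which calling them on these same 3 changes favours. The exception, *TCF7*, a transcription factor of T cells, had no usable spot for horse 41 at T1. The fit dropped that array, so that the change of *TCF7*, -1.71, rests on horses 2 and 32. Without regard to the test, 4530 gene names (25.9%) were higher at T1 in all 3 horses and 4467 (25.5%) were lower in all 3, and the other 8489 were mixed. A change of at least 1 on the log2 scale in every horse, which is at least 2-fold, was found for 731 gene names upwards and 456 downwards. The share of rises among the calls was 61.0%, and it was 49.6% with quantile normalization and 47.7% in the deposited series values. It was 48.1% after normexp, a background correction that models the signal, here with an offset of 50 and followed by quantile normalization. Wherever normexp or normexp background correction is named below, the offset and the quantile step are included. All 1777 changed genes kept their sign under each of these 3 alternatives, which rescale the same 6 arrays and so are no separate support. Leaving out horse 2 brought the number of changed genes to 173, leaving out horse 32 to 289 and leaving out horse 41 to 2982.

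The 3 horses did not change by the same amount. The median change of all gene names tested was -0.17 in horse 2, -0.0034 in horse 32 and 0.19 in horse 41, and quantile normalization brought these medians to -0.11, 0.01 and 0.02. Changes of at least 1 numbered 2804 upwards and 2856 downwards in horse 2, 2893 and 3017 in horse 32, and 2723 and 1033 in horse 41. Across gene names, which are not independent replicates, the changes of horses 2 and 32 correlated with a Pearson r of 0.60, those of horses 2 and 41 with 0.46 and those of horses 32 and 41 with 0.53. Each pair had the same sign for 68.6%, 64.7% and 69.9% of the gene names. Among the 1084 rises, horse 41 had the smallest change in 61.5%, against 43.6% over all gene names tested, and the highest level at T0 in 59.3%, against 28.9%. These shares describe the 3 horses and were not tested.

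**Figure D1:**
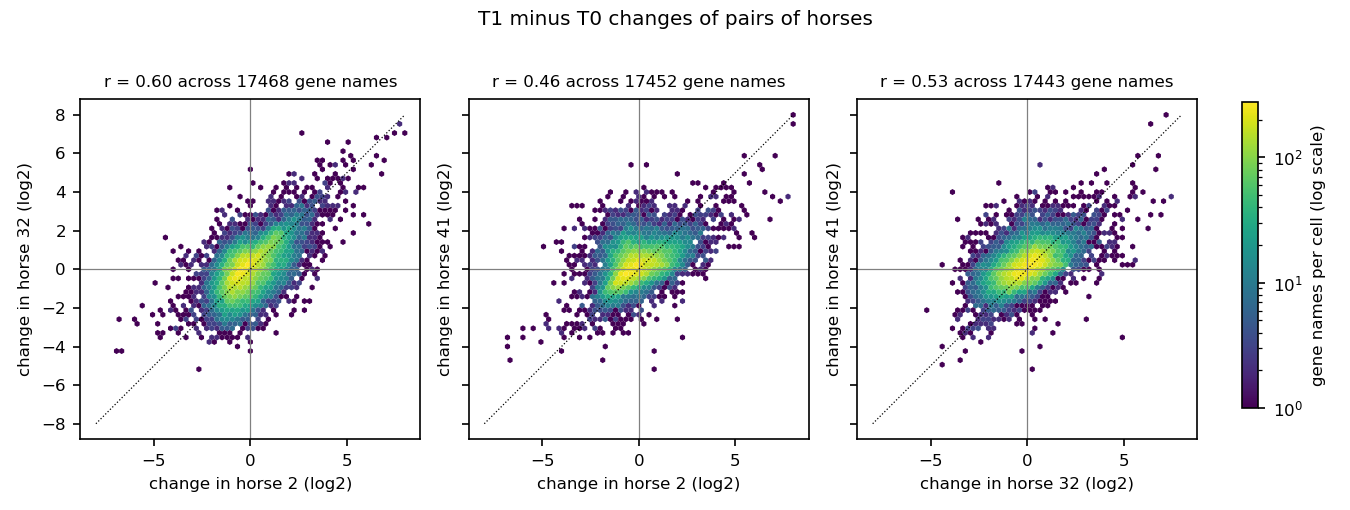
Change of each gene name (T1 minus T0, log2) in a pair of horses, with the number of gene names per cell as colour on a log scale and the dotted line marking equal changes. The clouds rise from lower left to upper right, with r of 0.60, 0.46 and 0.53, and the changes of horse 41 spread less than those of the other two horses.

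The genes that rose most coded for a decoy receptor, the chains of C1q, secreted proteins of myeloid cells and the haemoglobin scavenger CD163. The 10 genes described here have the largest rises among changed genes that carry a symbol and passed the background mark on all 6 arrays, and the 10 falls were taken in the same way. All 20 moved the same way in every horse, as the rule for taking them required. In all 20 the 3 levels at T0 and the 3 levels at T1 did not overlap, as the choice of the largest changes favours. How common this was over all gene names tested is not given here, so that it cannot be judged. The probes are shown because they fix which transcript each value belongs to, and some of these genes carry only locus or transcript names on the array. All are 60 bases long, written 5′ to 3′ as on the array, with coordinates of the build EquCab1 and the strand that the order of the file's coordinates gives. No annotation of that build was used here, so that exon and intron were not assigned.
IL1R2 (chr15:4173797-4173856, minus strand): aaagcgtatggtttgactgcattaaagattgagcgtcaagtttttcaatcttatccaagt
C1QA (chr2:30480554-30480613, minus strand): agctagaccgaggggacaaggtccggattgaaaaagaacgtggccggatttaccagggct
C1QB (chr2:30462581-30462640, minus strand): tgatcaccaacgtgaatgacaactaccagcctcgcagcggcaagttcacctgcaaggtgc
C1QC (chr2:30472965-30473024, minus strand): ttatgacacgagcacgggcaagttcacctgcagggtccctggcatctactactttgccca
CD163 (chr6:35123696-35123755, minus strand): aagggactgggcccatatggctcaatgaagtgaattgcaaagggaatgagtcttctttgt
RETN (chr7:1621628-1621687, plus strand): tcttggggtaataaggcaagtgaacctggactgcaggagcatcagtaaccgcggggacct

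*IL1R2*, which codes for a decoy receptor that binds interleukin-1 without passing on a signal, stood at 0.46, -0.95 and 4.22 at T0 and at 8.16, 6.54 and 7.92 at T1. Its mean rise of 6.3 (SE 0.69, adjusted p = 0.00245) is 78.9-fold. Horse 41 began far above the other two and rose least, so that the 3 horses lay closer together at T1 than at T0. The probe shown for this gene carries the array name IL-1RII.

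The 3 chains that make up C1q, the molecule that starts the classical complement pathway, rose together. Their probes lie next to each other on chromosome 2, within 18033 bases. *C1QA* stood at -3.73, -3.91 and -2.94 at T0 and at 2.79, 2.82 and 2.28 at T1, a rise of 6.16 (SE 0.38, adjusted p = 0.000235). The highest and the lowest horse lay 0.97 apart at T0 and 0.54 apart at T1. *C1QB* went from -3.96, -4.08 and -3.12 to 0.9, 1.43 and 1.12, a rise of 4.87 (SE 0.35, adjusted p = 0.000673). *C1QC* went from -4.25, -4.8 and -4.06 to 0.2, 0.55 and 0.46, a rise of 4.78 (SE 0.34, adjusted p = 0.00062). In each of the 3 genes horse 32 was lowest at T0 and highest at T1.

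*TGM3*, a transglutaminase that cross-links proteins, stood at -1.7, -3.05 and -3.43 at T0 and at 3.68, 2.64 and 2.54 at T1, a rise of 5.68 (SE 0.32, adjusted p = 0.00015). It was the only one of the 10 in which horse 41 rose most. *CLU*, which codes for the extracellular chaperone clusterin, stood at -3.67, -4.39 and -3.2 at T0 and at 3.2, 0.48 and -0.69 at T1, a rise of 4.75 (SE 0.68, adjusted p = 0.00635). Its 3 changes, 6.86, 4.86 and 2.51, were spread widely, and the gene's other probe gave 6.45, 4.25 and 2.77. *RETN*, coding for resistin, which human neutrophils and monocytes secrete, stood at 3.16, 1.57 and 4.69 at T0 and at 7.92, 7.75 and 6.83 at T1, a rise of 4.36 (SE 0.64, adjusted p = 0.00711). Here too the horses differed at T0 and came together at T1, 3.12 apart before the ride and 1.09 after it.

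*CD163*, the monocyte and macrophage receptor that takes up haptoglobin with haemoglobin, stood at -0.63, -0.28 and -0.86 at T0 and at 4.33, 3.68 and 3.1 at T1. The 3 horses began within 0.58 of each other, and the rise of 4.29 (SE 0.35, adjusted p = 0.00111) was similar in all of them, as it was by another probe of the gene (5.06, 4.00 and 3.91). *MMP27*, a matrix metalloproteinase, stood at -3.65, -4.61 and -0.74 at T0 and at 1.65, 1.26 and 1.8 at T1, a rise of 4.57 (SE 0.58, adjusted p = 0.0043). *NR2E1*, an orphan nuclear receptor known from neural stem cells, stood at -3.41, -4.24 and -2.39 at T0 and at 0.87, 1.25 and 1.74 at T1, a rise of 4.63 (SE 0.37, adjusted p = 0.00111). In 8 of the 10 genes horse 41 had the highest level at T0, and in 7 of the 10 it had the smallest rise. Without horse 2, *MMP27* (adjusted p = 0.055) and *RETN* (adjusted p = 0.0755) no longer passed.

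**Figure D2:**
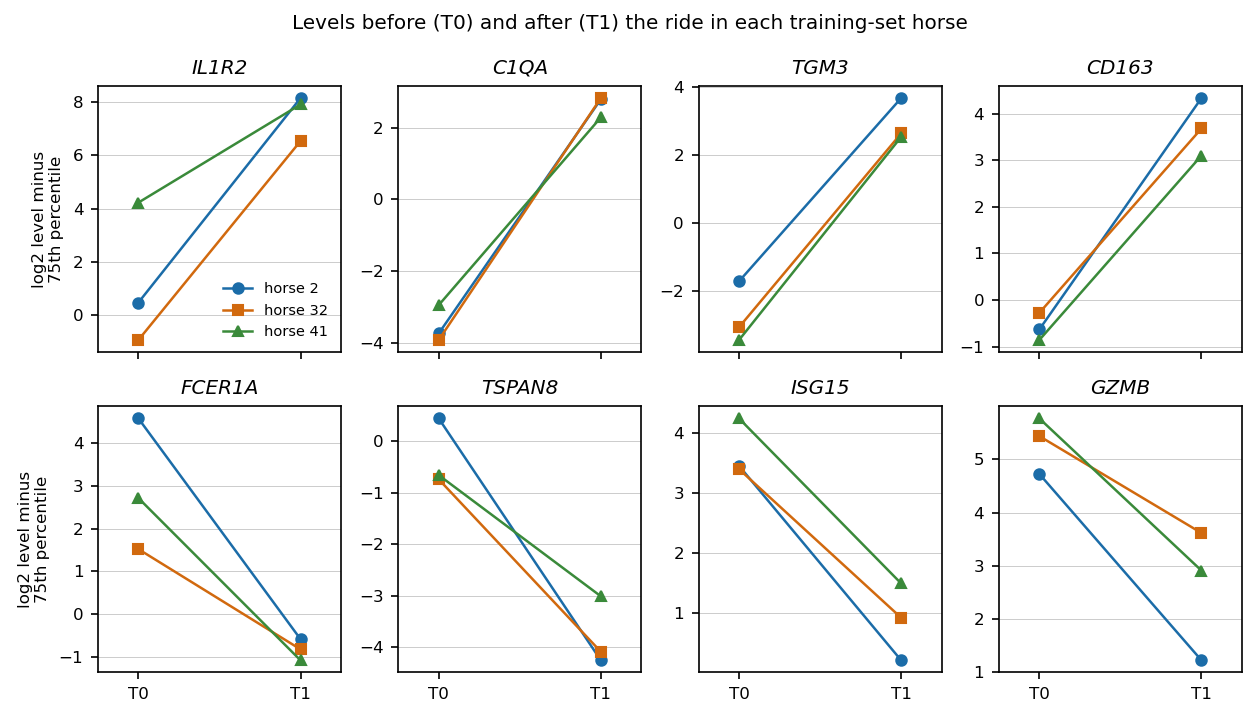
Level (log2 scale, relative to the 75th percentile of the array) at T0 and T1 in each horse, joined by a line, for 4 genes that rose and 4 that fell. In each panel the 3 T0 points and the 3 T1 points do not overlap, as the choice of these genes favours. *IL1R2* shows horse 41 at 4.22 at T0, above -0.95 and 0.46 in horses 32 and 2.

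The genes that fell most included genes of basophils, dendritic cells, cytotoxic lymphocytes and the interferon response. Falls were smaller than rises, and horse 2 had the largest fall in 8 of the 10 genes. The probes of *ISG15* and *GZMB* are shown. Both genes carry locus names on the array, and granzymes have close copies.
ISG15 (chrUn:254070794-254070853, minus strand): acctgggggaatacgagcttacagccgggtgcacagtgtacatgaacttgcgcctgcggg
GZMB (chrUn:179917735-179917794, plus strand): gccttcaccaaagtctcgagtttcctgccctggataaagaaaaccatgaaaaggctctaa

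*FCER1A*, the IgE-binding chain of the receptor that arms basophils and mast cells, stood at 4.58, 1.52 and 2.71 at T0 and at -0.59, -0.83 and -1.09 at T1, a change of -3.77 (SE 0.5, adjusted p = 0.00471). Its 3 levels at T0 lay 3.06 apart at most, and 0.5 apart at T1. *HRH4*, the histamine receptor of eosinophils, basophils and mast cells, stood at 1.32, -0.32 and -0.6 at T0 and at -2.73, -2.46 and -2.16 at T1, a change of -2.59 (SE 0.47, adjusted p = 0.0163). In both genes horse 2 was highest at T0. *TSPAN8*, a membrane tetraspanin, stood at 0.45, -0.74 and -0.66 at T0 and at -4.26, -4.09 and -3.01 at T1, a change of -3.47 (SE 0.45, adjusted p = 0.00451). *EMR3*, an adhesion receptor of myeloid cells, stood at -0.043, -1.51 and -1.59 at T0 and at -3.79, -4.48 and -3.66 at T1, a change of -2.93 (SE 0.38, adjusted p = 0.00471), against the direction of most genes of mature neutrophils described next.

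*ISG15*, the ubiquitin-like protein that interferon induces, stood at 3.46, 3.4 and 4.25 at T0 and at 0.21, 0.92 and 1.49 at T1, a change of -2.83 (SE 0.33, adjusted p = 0.00303). *IFIT5*, an interferon-induced protein that binds RNA, stood at -3.05, -1.02 and -1.47 at T0 and at -5.64, -4.31 and -3.53 at T1, a change of -2.65 (SE 0.35, adjusted p = 0.00493). Horse 41 was highest in *ISG15* at both time points, and horse 2 was lowest in *IFIT5* at both. *GBP5* (GBP2 on the array), a guanylate-binding protein induced by interferon gamma, stood at 3.22, 3.71 and 3.28 at T0 and at 0.44, 1.1 and 0.99 at T1, a change of -2.57 (SE 0.31, adjusted p = 0.00389) that the gene's other probes repeated.

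*GZMB*, a protease of cytotoxic granules whose probe the array describes as mast cell protease-1-like, stood at 4.73, 5.44 and 5.77 at T0 and at 1.22, 3.62 and 2.91 at T1, a change of -2.73 (SE 0.39, adjusted p = 0.00625). *LAMP3*, a lysosomal protein of mature dendritic cells, stood at -1.5, -1.77 and -2.45 at T0 and at -4.82, -4.13 and -4.77 at T1, a change of -2.67 (SE 0.35, adjusted p = 0.00459). *ABCA6*, a transporter of the lipid-carrying ABC family, stood at -0.92, -0.8 and -1.0 at T0 and at -3.36, -3.4 and -3.67 at T1, a change of -2.57 (SE 0.31, adjusted p = 0.00364). Of the 20 genes, the changes of the 3 horses were closest in *ABCA6*, where the largest and the smallest change lay 0.23 apart. Without horse 2, *EMR3*, *GZMB*, *LAMP3*, *IFIT5* and *HRH4* no longer passed (adjusted p between 0.0503 and 0.0858), and without horse 32 *HRH4* did not (adjusted p = 0.0598). *IFIT5* did not pass with all 26 arrays in the fit (adjusted p = 0.0527), and with a term for scan day added *CLU*, *ISG15*, *GZMB* and *IFIT5* did not (adjusted p between 0.0637 and 0.316).

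**Figure D3:**
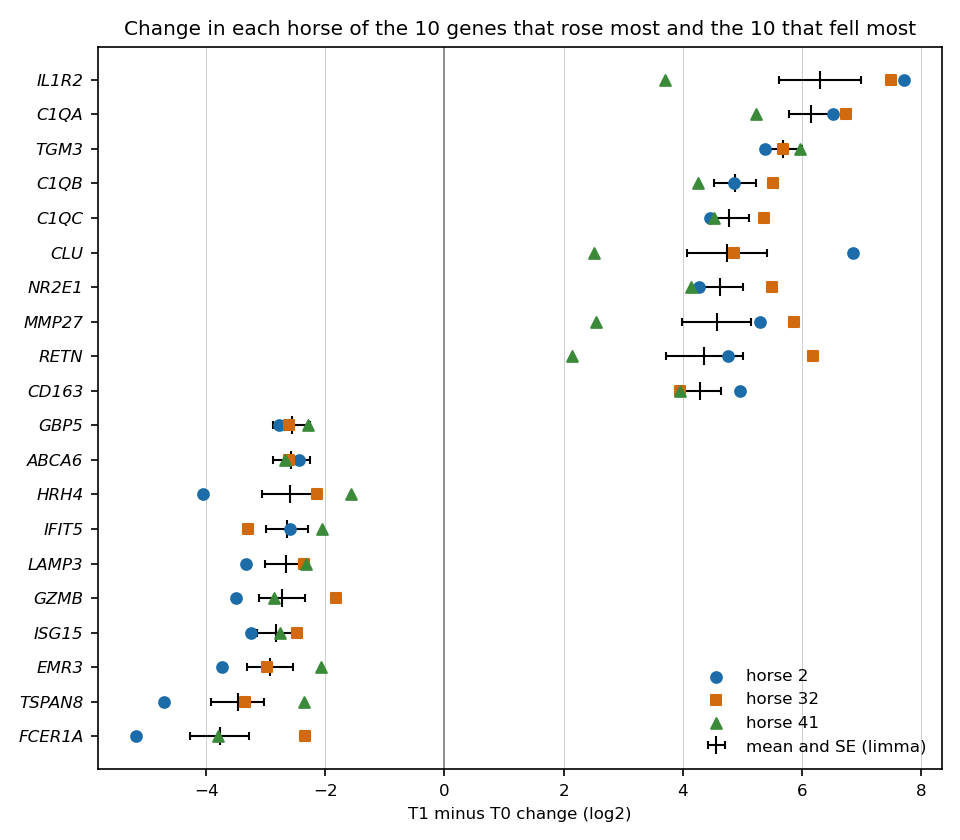
Change (T1 minus T0, log2) of the 10 genes with the largest rises and the 10 with the largest falls, with a point per horse and a bar for the mean and its standard error in limma. All points of a gene lie on the same side of 0, and the points of *IL1R2* reach from 3.70 to 7.71 while those of *ABCA6* lie between -2.67 and -2.44.

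Many genes of neutrophils and monocytes rose, and many genes of lymphocytes fell. Over all gene names tested, 6.2% rose and 3.96% fell, and the counts of each list stand beside these shares. The label blood was compared with defining markers, and *CSF3R* of neutrophils, *CD14* of monocytes, *CD3E* of T cells, *CD79A* of B cells and the globin *HBB* of red cells passed the background mark on all 6 arrays. Of 18 tested genes of mature neutrophils 9 rose and none fell, 14 were higher in all 3 horses, and the median change was 1.59, 0.76 and 0.69 in the 3 horses against -0.17, -0.0034 and 0.19 over all genes tested. Of 12 genes of neutrophil granule proteins 8 rose, none fell, and the medians were 2.14, 2.20 and 1.71. Of 17 monocyte genes 6 rose and 1 fell, with medians of 0.35, 0.79 and 0.77. Without horse 2 none of the genes of mature neutrophils, T cells, B cells, NK cells, Toll-like receptors or cell division passed, and without horse 32 none of the first 3 of these lists did. Neutrophil granule genes kept 3 and 4 rises without these horses, glucocorticoid targets 6 and 8, and interferon-stimulated genes 3 and 5 falls.

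The alarmin genes of neutrophils had very unequal levels at T0. *S100A8*, a subunit of calprotectin, stood at 3.29, 1.66 and 6.58 at T0 and at 6.91, 7.11 and 6.95 at T1, a rise of 3.14 (SE 0.77, adjusted p = 0.0396). *S100A9*, its partner, stood at 5.3, 2.84 and 7.22 at T0 and at 8.0, 7.61 and 8.0 at T1, a rise of 2.75 (SE 0.63, adjusted p = 0.0324). At T0 both genes were highest in horse 41 and lowest in horse 32, and at T1 the 3 horses lay 0.2 and 0.39 apart. With quantile normalization 5 genes of the list rose and 1 fell, with normexp background correction 5 rose and 1 fell, and with the series values 3 rose and 1 fell. Further rises were those of *MMP25*, *NCF4*, *S100A12*, *MGAM*, *ALPL* and *CXCR2*, between 1.18 and 2.31.

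Granule protein genes are read in young neutrophils and their precursors in the marrow. *BPI*, which kills Gram-negative bacteria, stood at -0.25, -1.88 and 0.89 at T0 and at 4.15, 1.49 and 3.4 at T1, a rise of 3.42 (SE 0.4, adjusted p = 0.0034). *LTF*, the iron-binding lactoferrin, stood at 1.16, 0.77 and 1.19 at T0 and at 3.19, 4.44 and 6.21 at T1, a rise of 3.57 (SE 0.52, adjusted p = 0.00654). *MMP8*, the neutrophil collagenase, stood at 3.87, 2.61 and 6.14 at T0 and at 7.67, 7.02 and 7.6 at T1, a rise of 3.22 (SE 0.53, adjusted p = 0.0111). The horses differed in which gene rose most, since horse 41 had the largest rise of *LTF* (5.02) and the smallest of *MMP8* (1.46). *OLFM4*, a marker of a subset of neutrophils, passed the background mark in 1 horse at T0 and in all 3 at T1, where it stood at 1.72, -1.11 and 2.65. *LCN2*, *TCN1*, *SERPINB1* and *RETN* also rose.

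*CD14*, the monocyte co-receptor for lipopolysaccharide, stood at 6.37, 5.31 and 5.82 at T0 and at 7.56, 8.2 and 7.7 at T1, a rise of 1.99 (SE 0.39, adjusted p = 0.0196). *VCAN* (2.25), *KLF4* (1.82) and *TLR8* (1.52), all known from monocytes, rose as well. *CX3CR1*, the fractalkine receptor of patrolling monocytes and cytotoxic lymphocytes, went the other way, from -4.09, -1.85 and -3.47 to -5.88, -4.34 and -4.65, a change of -1.82 (SE 0.36, adjusted p = 0.0197), and did not pass with normexp background correction (-0.56, adjusted p = 0.106). Of 14 platelet genes, *CLU*, *THBS1* (2.34) and *SELP* (1.5) rose and none fell, with medians of -0.04, 0.62 and 0.80. These 3 genes are also made outside platelets.

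Of 28 tested T cell genes none rose and 15 fell, 22 were lower in all 3 horses, and the medians were -1.12, -2.01 and -0.98. Of 20 B cell genes 7 fell, with medians of -0.98, -1.16 and -0.74, and of 23 genes of NK and cytotoxic lymphocytes 13 fell, with medians of -1.21, -1.58 and -1.52. *CD4*, the co-receptor of helper T cells, stood at -0.51, -0.75 and -0.87 at T0 and at -2.65, -2.67 and -2.59 at T1, a change of -1.93 (SE 0.31, adjusted p = 0.0105). *CD8A*, that of cytotoxic T cells, stood at -2.32, -1.35 and -1.89 at T0 and at -3.95, -3.74 and -4.07 at T1, a change of -2.07 (SE 0.33, adjusted p = 0.00907). Both co-receptor genes fell to nearly the same level in all 3 horses. *CD3E*, part of the T cell receptor complex, stood at 3.36, 4.35 and 2.35 at T0 and at 2.26, 2.34 and 1.33 at T1, a change of -1.38 (SE 0.34, adjusted p = 0.0403), and horse 32 began highest and fell most. The kinase *LCK*, the adaptor *LAT* and the co-stimulators *CD2*, *CD27*, *CD28* and *CD40LG* were among the other falls.

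*CD79A*, a chain of the B cell receptor, stood at -0.2, 0.29 and -0.78 at T0 and at -1.83, -1.55 and -1.87 at T1, a change of -1.53 (SE 0.33, adjusted p = 0.0258). Its partner *CD79B* (-1.61), *CD22* (-1.5), *FCRLA* (-1.63) and *VPREB3* (-1.79) fell too. *NKG7*, a granule membrane protein of killer cells, stood at 2.32, 2.22 and 2.68 at T0 and at -0.26, 0.63 and 0.18 at T1, a change of -2.22 (SE 0.34, adjusted p = 0.00848). *NCR3*, an activating receptor of NK cells, stood at 2.83, 3.33 and 2.8 at T0 and at 0.31, 1.56 and 0.8 at T1, a change of -2.1 (SE 0.33, adjusted p = 0.00856). The 3 horses lay 0.47 apart in *NKG7* and 0.52 apart in *NCR3* at T0. Cathepsin W (*CTSW*, -2.27), perforin (*PRF1*, -1.22) and the granzymes *GZMA* (-1.67) and *GZMK* (-1.38) fell with *GZMB*, and granzymes and killer lectin receptors have close copies that could share a probe. The falls in the T cell list numbered 0 without horse 2, 0 without horse 32 and 18 without horse 41, and the B cell list had 0 falls without either horse 2 or horse 32.

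Part of the genes that present antigen fell, among them the lipid-presenting CD1 family. Of 25 tested, none rose and 10 fell, with medians of -1.52, -1.03 and -0.79. *CD1E* passed the background mark in all 3 horses at T0, at -1.92, -1.1 and -3.11, and in 2 of them at T1, at -5.3, -4.61 and -6.45. *CD1A5*, another of the expanded equine CD1 genes, stood at 0.14, 1.41 and -0.36 at T0 and at -1.96, -0.97 and -2.28 at T1, a change of -2.13 (SE 0.31, adjusted p = 0.00703), and these genes are near copies whose probes may read each other's transcripts. *HLA-DMB*, which loads peptides onto class II molecules, stood at 5.02, 4.63 and 4.83 at T0 and at 3.2, 3.73 and 3.65 at T1, a change of -1.3 (SE 0.33, adjusted p = 0.0441). Class II genes *DRA* (-1.39) and *DQB* (-1.41) fell as well.

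The markers of basophils and eosinophils were split. Of 10 tested, 3 fell and 1 rose, with medians of -1.94, -0.64 and 0.36, the widest gap between the 3 horses of any list. *MS4A2*, the beta chain of the IgE receptor, stood at -1.53, -3.81 and -3.46 at T0, was not well above background on any array at T1 and was at least 11-fold lower there. It did not pass with normexp background correction (change -1.10, adjusted p = 0.0537), where 1 gene of the list fell. *CCR3*, the eotaxin receptor, stood at -1.19, -0.4 and -2.2 at T0 and at -3.64, -3.89 and -2.71 at T1, a change of -2.15 (SE 0.52, adjusted p = 0.0375). *CSF2RB*, the beta chain shared by the receptors for interleukin-3, interleukin-5 and GM-CSF and also found on neutrophils, rose by 1.81 (SE 0.32, adjusted p = 0.0145).

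Of 24 tested inflammatory cytokines and chemokines 5 rose and 3 fell, with medians of -0.12, -0.04 and 0.27. *CXCL1* stood at -4.29, -5.39 and -4.02 at T0 and at 0.31, -0.83 and -0.56 at T1, a rise of 4.21 (SE 0.36, adjusted p = 0.00113). *CXCL8*, or interleukin-8, stood at -4.96, -5.01 and -3.39 at T0 and at -0.85, -0.5 and -1.14 at T1, a rise of 3.62 (SE 0.45, adjusted p = 0.00411). All 3 horses showed these rises, as they did that of *CXCL2* (3.57), whose sequence is close to that of *CXCL1*. *IL18*, which drives interferon gamma in NK and T cells, stood at 2.0, 0.69 and 2.64 at T0 and at 4.41, 3.61 and 4.48 at T1, a rise of 2.39 (SE 0.34, adjusted p = 0.00635). *IL10*, the cytokine that restrains macrophages, rose by 1.26 (SE 0.32, adjusted p = 0.044). *LTB*, the lymphotoxin of lymphocytes, stood at 6.34, 6.51 and 6.07 at T0 and at 3.95, 4.54 and 4.18 at T1, a change of -2.08 (SE 0.32, adjusted p = 0.00792), and *TNFSF13B* (-1.65) and *IL23A* (-1.52) fell with it.

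Receptors and adaptors of the interleukin-1 family rose beside the decoy. Of 20 tested, 6 rose and none fell, with medians of 0.80, 0.24 and 0.50, and *IL18R1* (1.46) was among them. *IL1RAP*, the accessory chain needed for signalling, stood at -4.11, -3.73 and -2.98 at T0 and at 0.32, -0.5 and -0.58 at T1, a rise of 3.36 (SE 0.42, adjusted p = 0.00408). *IL1R1*, the signalling receptor, stood at -4.12, -5.38 and -4.74 at T0 and at -2.78, -3.26 and -2.41 at T1, a rise of 1.93 (SE 0.34, adjusted p = 0.0146). *IRAK3*, a kinase-dead brake on this pathway, rose by 1.75 (SE 0.4, adjusted p = 0.0324), and the kinase *IRAK2* by 2.19 (SE 0.36, adjusted p = 0.0119). Among 26 cytokine receptors and STAT genes 3 rose and 2 fell, beside 6.2% and 3.96% of all gene names tested. *IL22RA2*, a soluble receptor that binds and neutralises interleukin-22, was not well above background on any T0 array. It stood at 2.45, -0.99 and 0.87 at T1, at least 146-fold higher on this scale. Its smallest change over the alternative settings was 3.61 on the log2 scale. *IL4R* rose from 5.81, 5.54 and 5.72 to 7.63, 7.31 and 7.3, and *IL2RA* (-2.08) and *STAT4* (-1.24), both used by T cells, fell. *IL2RA* did not pass with normexp (change -0.57, adjusted p = 0.0515) or with the series values (change -0.57, adjusted p = 0.0593).

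Of 21 Toll-like receptor and LPS-sensing genes 9 rose and 3 fell, with medians of 0.89, 0.79 and 0.73. *TLR4*, the receptor for lipopolysaccharide, stood at 3.38, 2.52 and 3.6 at T0 and at 5.42, 5.13 and 5.33 at T1. *TREM1*, which amplifies inflammatory signals in neutrophils and monocytes, stood at 2.94, 3.38 and 3.32 at T0 and at 5.64, 5.57 and 4.53 at T1, a rise of 2.03 (SE 0.37, adjusted p = 0.0165). *CD14*, *TLR1*, *TLR2*, *TLR8*, *NOD1*, *NOD2* and *AOAH* were the other rises. *TLR3*, the receptor for double-stranded RNA, was not well above background on any T1 array and was at least 2.59-fold lower there. *TICAM1*, its adaptor, stood at -1.94, -1.77 and -2.38 at T0 and at -3.52, -2.7 and -3.5 at T1, a change of -1.21 (SE 0.32, adjusted p = 0.0477), and *CD180*, a receptor of B cells, changed by -1.84 (SE 0.38, adjusted p = 0.0227).

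Some of the genes that damp inflammation rose, and none fell. Of 24 tested, 8 rose and 16 were higher in all 3 horses, with medians of 0.57, 0.75 and 0.63. *DUSP1*, which removes phosphate from stress kinases, stood at 2.6, 3.02 and 2.66 at T0 and at 5.49, 5.6 and 5.02 at T1, a rise of 2.61 (SE 0.32, adjusted p = 0.00367). *SOCS3*, an inhibitor of cytokine receptors that signal through STAT3, stood at 1.97, 1.83 and 2.21 at T0 and at 4.48, 4.38 and 4.14 at T1, a rise of 2.33 (SE 0.32, adjusted p = 0.00557). *NFKBIA*, which holds NF-κB in the cytoplasm, stood at 5.39, 5.47 and 5.87 at T0 and at 7.93, 8.54 and 7.45 at T1, a rise of 2.39 (SE 0.37, adjusted p = 0.00856). At T0 the 3 horses lay 0.42 apart in *DUSP1*, 0.38 in *SOCS3* and 0.48 in *NFKBIA*. *IRAK3*, *DUSP2*, *DUSP6*, *BCL3* and *TSC22D3* were the other rises.

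Known targets of the glucocorticoid receptor rose in part. Of 21 tested, 10 rose and none fell, with medians of 1.34, 1.36 and 0.99, and *CD163*, *IL1R2* and *DUSP1* were among them. *FKBP5*, the co-chaperone that limits the receptor, stood at 0.044, 0.7 and 0.64 at T0 and at 3.47, 3.48 and 2.68 at T1, a rise of 2.75 (SE 0.36, adjusted p = 0.00471). *GLUL*, glutamine synthetase, stood at -1.25, -1.89 and -1.49 at T0 and at 2.67, 2.68 and 2.16 at T1, a rise of 4.05 (SE 0.33, adjusted p = 0.00112). *DDIT4*, an inhibitor of mTORC1, stood at 1.66, 1.38 and 2.35 at T0 and at 5.11, 5.17 and 5.22 at T1, a rise of 3.37 (SE 0.33, adjusted p = 0.00176). At T1 the horses lay 0.8 apart in *FKBP5*, 0.52 in *GLUL* and 0.11 in *DDIT4*. *TSC22D3*, or GILZ, stood at 2.96, 3.89 and 3.3 at T0 and at 4.92, 5.35 and 4.29 at T1, a rise of 1.47 (SE 0.34, adjusted p = 0.032). *ADORA3*, an adenosine receptor, was not well above background on any T0 array, and at T1 it was higher by at least 6.98-fold. The median of the list, 1.42 in the fit, was 0.4 with normexp background correction, where 9 of its genes rose.

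Clock genes were split. *PER1*, a clock gene that glucocorticoids also induce, stood at -2.51, -1.77 and -1.92 at T0 and at 0.3, 0.23 and 0.44 at T1, a rise of 2.39 (SE 0.33, adjusted p = 0.00547). *NR1D1*, the repressor REV-ERBα, stood at -2.74, -2.82 and -4.06 at T0 and at -4.93, -4.94 and -4.55 at T1, a change of -1.61 (SE 0.41, adjusted p = 0.0421). Of 17 tested, *PER1* and *NFIL3* rose and *NR1D1*, *DBP* and *BHLHE41* fell, and none of the 3 falls passed with normexp background correction. The hour of each blood draw was not given in the sources used here.

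Of 35 tested interferon-stimulated genes none rose, 14 fell and 23 were lower in all 3 horses. Their medians were -1.06, -1.05 and -1.01, and -0.88, -1.04 and -1.20 relative to the median of all genes tested in each horse. *IRF7*, the transcription factor that amplifies type I interferon, stood at 4.12, 3.87 and 4.31 at T0 and at 1.76, 2.61 and 2.4 at T1, a change of -1.84 (SE 0.34, adjusted p = 0.017). *MX1*, an antiviral GTPase, stood at 0.36, 0.25 and 1.58 at T0 and at -1.49, -1.42 and 0.54 at T1, a change of -1.52 (SE 0.33, adjusted p = 0.0269). Horse 41 was highest in *MX1* at both time points, and its level at T1 lay above the T0 levels of the other two horses, so that the groups overlapped although each horse fell. *OAS2* (-1.59), *HERC5* (-1.68), *IFI44* (-1.52), *RSAD2* (-1.6) and *USP18* (-1.34) fell together with *ISG15*. *IFIT1* passed the background mark in 1 horse at T1. The lists of lymphocytes and antigen presentation moved in the same direction, and their part in this result was not tested.

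Beyond C1q, complement genes of myeloid cells rose. Of 16 tested, 7 rose, the C1q chains and *CLU* included, and none fell, with medians of 1.80, 0.87 and 1.07. *ITGAM*, a chain of complement receptor 3, stood at -1.27, -0.13 and -0.4 at T0 and at 2.38, 1.31 and 1.25 at T1, a rise of 2.25 (SE 0.46, adjusted p = 0.0221). *VSIG4*, the complement receptor of resident macrophages, stood at -3.84, -3.35 and -3.26 at T0 and at -0.98, -1.62 and -1.25 at T1, a rise of 2.2 (SE 0.35, adjusted p = 0.00907). *C5AR1*, the receptor for C5a, rose by 1.49 (SE 0.4, adjusted p = 0.0477). Genes of leukotriene synthesis rose too, with *ALOX5AP* at 1.89, 0.31 and 2.61 at T0 and at 5.18, 4.2 and 4.51 at T1 (3.03, SE 0.42, adjusted p = 0.00557), *ALOX5* up by 1.56 and the leukotriene B4 receptor *LTB4R* up by 2.03. The receptors *CYSLTR1* (-1.56) and *PTGDR* (-1.51) fell, and 20 genes of the eicosanoid list were tested. Of 28 genes of leukocyte traffic, the integrins *ITGAM* and *ITGB2* rose and *ITGA4*, *CX3CR1* and *CXCR3* fell. Over all gene names tested, 6.2% rose and 3.96% fell.

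Some genes that store and break down glycogen rose, and so did regulators of glycolysis. Of 20 glycogen genes 5 rose and none fell, with medians of 1.12, -0.21 and 0.77, so that horse 32 stood apart. *STBD1*, which tethers glycogen to membranes, passed the background mark in 1 horse at T0 and stood at 3.71, 0.48 and 1.66 at T1. *GYG1*, the primer of glycogen synthesis, stood at 0.12, 2.4 and 1.03 at T0 and at 5.33, 4.33 and 3.54 at T1, a rise of 3.21 (SE 0.57, adjusted p = 0.0149). *PPP1R3B*, which brings phosphatase to glycogen, stood at 2.63, 2.17 and 3.46 at T0 and at 5.21, 5.34 and 5.14 at T1, a rise of 2.48 (SE 0.37, adjusted p = 0.0075). *GYG1* began lowest and rose most in horse 2, while *PPP1R3B* rose most in horse 32. The phosphorylase *PYGL* rose by 1.79 and *UGP2* by 1.19.

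Of 37 genes of glycolysis, lactate and the pentose phosphate route 7 rose and none fell, with medians of 0.40, 0.20 and 0.43. *PFKFB3*, which makes the activator of phosphofructokinase, stood at -3.94, -4.05 and -3.47 at T0 and at -0.39, -0.29 and -1.46 at T1, a rise of 3.11 (SE 0.41, adjusted p = 0.00471). *SLC2A3*, a glucose transporter of leukocytes, stood at -2.78, -2.31 and -2.24 at T0 and at -0.15, -0.3 and -1.02 at T1, a rise of 1.95 (SE 0.36, adjusted p = 0.0171). *LDHA* (1.18), *PGK1* (1.21), *PGD* (1.38) and *TKT* (1.27) rose less, and *PFKFB2* passed the background mark in 1 horse at T0. With quantile normalization 3 genes of the list rose, and without horse 2 none did.

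Fatty acid oxidation as a whole had no common direction, with medians of -0.17, -0.16 and 0.11. Among 39 genes 2 rose and 1 fell, beside 6.2% and 3.96% of all gene names tested. The 2 rises were large. *CPT1A*, the gatekeeper of fatty acid entry into mitochondria, stood at -3.1, -3.11 and -2.18 at T0 and at 0.39, 0.39 and 0.89 at T1, a rise of 3.36 (SE 0.31, adjusted p = 0.00153). *ACSL4*, which activates arachidonic acid, stood at 2.05, 2.26 and 2.12 at T0 and at 5.17, 5.31 and 5.01 at T1, a rise of 3.02 (SE 0.31, adjusted p = 0.00205). The changes of the 3 horses lay 0.42 apart in *CPT1A* and 0.24 apart in *ACSL4*. *ECHS1*, a step of beta-oxidation, changed by -1.24. In the tricarboxylic acid cycle, pyruvate carboxylase (*PC*) rose from -0.82, -1.2 and 0.19 to 2.94, 1.98 and 1.89, by 2.88 (SE 0.42, adjusted p = 0.00704), and *PCK2* changed by -1.39 (SE 0.31, adjusted p = 0.0303). Of the 24 genes of that cycle these were the only calls, and with normexp background correction 2 rose and 5 fell.

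Subunits of the respiratory chain and of ribosomes were lists in which the horses differed and the processing mattered. The nuclear-encoded subunits of complex I had medians of -1.0, 0.04 and -0.39, and none of 34 passed. Of 34 subunits of complexes III to V, *UQCRB* alone rose (1.68, SE 0.36, adjusted p = 0.0259), and the medians were -0.72, 0.11 and -0.21. Cytosolic ribosomal proteins had medians of -1.27, -0.03 and -0.68, and 1 of 77 fell. In all 3 lists horse 2 was lowest and horse 32 was nearest to 0. With normexp and quantile normalization 11 complex I genes and 28 cytosolic ribosomal genes fell, and with the series values 10 and 32. Mitochondrial ribosomal proteins had medians of -0.82, -0.43 and -0.31, with 2 falls (*MRPL2* and *MRPL34*) of 72, and 19 with either of these alternatives.

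Antioxidant genes went in both directions. Of 33 tested, 7 rose and 2 fell, with medians of -0.35, 0.01 and -0.02. *GCLM*, a subunit of the enzyme that limits glutathione synthesis, stood at -0.59, -0.97 and 0.7 at T0 and at 2.04, 2.22 and 2.34 at T1, a rise of 2.49 (SE 0.37, adjusted p = 0.00773). *NFE2L2*, the transcription factor NRF2, stood at 0.74, 0.8 and 0.68 at T0 and at 2.36, 2.27 and 2.25 at T1, a rise of 1.55 (SE 0.31, adjusted p = 0.0204). The 3 horses were nearly equal in *NFE2L2* at both time points. *PRDX2*, the peroxiredoxin of red cells, stood at 1.89, 1.1 and 0.47 at T0 and close to 0 in horse 2 and at -0.87 and -0.83 in the others at T1, a change of -1.72 (SE 0.32, adjusted p = 0.0175), and *GPX1* changed by -1.51. *SOD2*, *PRDX6*, *GLRX*, *HMOX1* and *MSRB1* were the other rises, and with normexp background correction 6 genes of the list rose and 7 fell, while none passed without horse 2 or without horse 32. Of 26 genes that handle haemoglobin and iron, *CD163*, *LTF*, *LCN2*, *HMOX1* (1.36) and *BLVRA* (1.29) rose and none fell.

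Most genes of dividing cells were lower at T1. Of 33 tested, none rose, 11 fell and 28 were lower in all 3, with medians of -1.14, -1.46 and -0.72. *RRM2*, which makes deoxyribonucleotides, stood at -0.22, 0.24 and -0.33 at T0 and at -1.96, -1.48 and -2.08 at T1, a change of -1.74 (SE 0.31, adjusted p = 0.0147). *CCNB1*, the cyclin of mitosis, stood at -1.34, -1.24 and -1.8 at T0 and at -3.03, -3.3 and -3.07 at T1, a change of -1.67 (SE 0.33, adjusted p = 0.0193). *MKI67* (-1.19), *CDK1* (-1.33) and *CDC20* (-1.5) fell with them, and *CDKN3* was not well above background on any T1 array. Without horse 2 none of the 11 passed.

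Of 41 heat shock proteins and chaperones 3 rose and none fell, beside 6.2% of all gene names tested that rose, with medians of 0.02, 0.12 and 0.33. *HSPH1* stood at -0.16, -0.53 and -1.05 at T0 and at 0.78, 2.42 and 0.81 at T1, a rise of 1.91 (SE 0.41, adjusted p = 0.0272). *HSPA1A*, the inducible HSP70, stood at 2.07, 2.15 and 1.26 at T0 and at 3.22, 4.73 and 2.06 at T1, a rise of 1.51 (SE 0.4, adjusted p = 0.0484). Horse 32 had the highest level of both genes at T1. *HSPA6*, the other rise, did not pass with quantile normalization (adjusted p = 0.0513), normexp (0.156), the series values (0.179) or no block (0.113). Of 46 proteasome genes 3 fell and 1 rose, beside 3.96% and 6.2% of all gene names tested. The falls were *PSMB8* (-1.33), *PSMB9* (-1.55) and *PSME1* (-1.24), subunits of the immunoproteasome and its activator, while 10 genes fell with normexp background correction. The rise was that of *PSME4*, which was 2.37-fold higher at T1. Among 29 genes of the BCL2 family and cell death, 1 rose and 2 fell, beside the same shares of all gene names. *MCL1*, which keeps neutrophils alive, rose from 4.64, 2.13 and 6.58 to 6.82, 6.98 and 7.26, by 2.57 (SE 0.66, adjusted p = 0.0442). The falls were those of *PMAIP1* (-1.84) and *TNFSF10* (-1.36).

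**Figure D4:**
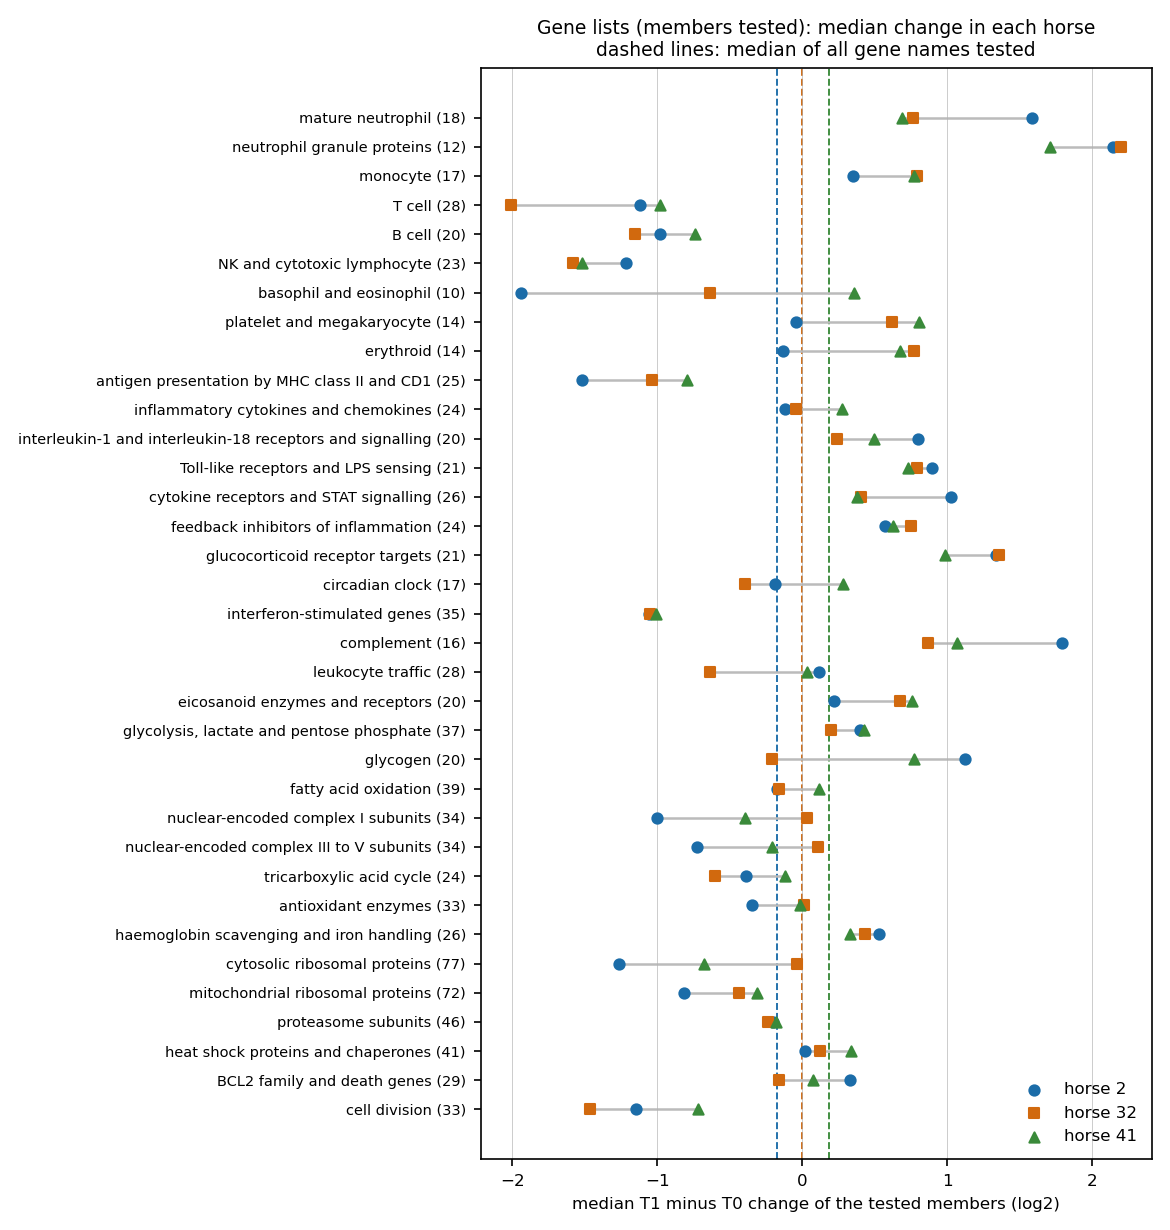
Median change (T1 minus T0, log2) of the tested genes of each list in each horse, with the number of genes in brackets and dashed lines for the median of all genes tested in that horse. Interferon-stimulated genes lie at -1.06, -1.05 and -1.01 in the 3 horses, and basophil and eosinophil genes spread from -1.94 to 0.36.

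Some genes moved differently in the 3 horses. With 1 array per horse and time point, a difference between the changes of horses has no replicate and was not tested. Of 15438 gene names well above background on all 6 arrays, 210 (1.36%) were higher by at least 1 in a horse and lower by at least 1 in another. Their signals were dim, with a median level of -3.62 against -1.15 for the 15438. The count was 192 with quantile normalization alone, 20 with normexp and quantile normalization, and 25 with the series values. Another probe of the same gene, which checks the spot but not the blood sample, was well above background for 33 of the 210, and 31 of these showed the same pair of signs. Over 4907 gene names with another such probe, the deviation of the change of a horse from the mean of the 3 horses correlated between both probes with an r of 0.80, 0.79 and 0.80.

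The 10 largest opposite changes belonged to genes of varied function. *FBLN1*, coding for the matrix protein fibulin-1, stood at -1.86, -0.76 and -2.47 at T0 and at 0.064, -2.4 and -2.73 at T1. Its changes were 1.93, -1.64 and -0.27, and 1.61, -1.08 and -0.16 with normexp background correction. *TMEM214*, an endoplasmic reticulum protein, changed by -0.32, -1.72 and 2.43, and *KPNA7*, an importin, by -2.2, 0.086 and 2.55. In *KPNA7* horse 2 was highest at T0 and horse 41 was highest at T1. *KLHL6*, a ubiquitin ligase adaptor of B cells, changed by 2.27, 0.53 and -1.67, and *HRH3*, a histamine receptor, by -1.03, -1.63 and 1.86. The other genes of this group were *ZNF425*, *MFSD10*, *OR2AI6*, *RBMS2* and *LRRC66*, and 8 of the 10 had a single probe. All 10 kept both signs with normexp background correction, and 2 of them, *FBLN1* and *KPNA7*, still moved by at least 1 each way.

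In other genes a single horse stood apart while the changes of the other two lay within 0.5 of each other. *HBB*, the beta globin of haemoglobin, stood at 6.35, 3.55 and 3.04 at T0 and at 6.51, 7.18 and 6.8 at T1. At T0 horse 2 lay below the T1 levels of the other horses but nearer to them than to their T0 levels. Its change was 0.16 against 3.63 and 3.76. All 5 other probes of the gene gave the same picture, with 0.23 to 0.42 in horse 2 and 3.50 to 4.05 in the others. *HBA2*, an alpha globin, stood at 5.75, 4.27 and 3.02 at T0 and at 6.14, 7.06 and 6.18 at T1, in the same order of horses. Both globin genes passed as rises in the fit (*HBB* 2.52, SE 0.64, adjusted p = 0.0431), and globins have close copies that a probe may not tell apart. Of the 14 tested genes of the erythroid list the globins rose, and *SELENBP1* (-2.11) and *GYPC* (-2.03) fell, both of which did not pass when all probes of a gene name were averaged (adjusted p = 0.0855 and 0.604).

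*MLN*, the gut hormone motilin, stood at -0.84, -2.88 and -1.66 at T0 and at 0.83, 1.48 and -0.48 at T1. Horse 32 began lowest and ended highest, and its change of 4.36 stood against 1.67 and 1.18. The 4 other probes of the gene well above background gave 3.99 to 4.67 in horse 32. *MOGAT1*, which makes diacylglycerol, stood at -2.12, -1.28 and 2.17 at T0 and at 1.37, 2.4 and 1.59 at T1, so that its level was high in horse 41 before the ride and changed by -0.58, against 3.48 and 3.68 in the other two. Another probe gave 3.74, 3.75 and -0.47. *IL1R2* belonged to the same group, since its change in horse 41 was 3.70.

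Of the remaining genes of this kind, *PIGA* and *HTR1E* had another probe well above background. *DRAP1*, a repressor of transcription, stood at -3.27, 0.27 and 0.086 at T0 and at 0.23, 0.23 and 0.045 at T1, and its low level in horse 2 at T0 set it apart. *TRIM34*, an interferon-induced TRIM protein, stood at -2.79, -0.17 and -2.3 at T0 and at -2.57, -2.95 and -2.54 at T1. *FASN*, fatty acid synthase, stood at -3.49, -1.76 and -4.6 at T0 and at -3.35, -4.61 and -3.98 at T1. In *TRIM34* and *FASN* a single high level, that of horse 32 at T0, made the difference. *SLC6A4*, the serotonin transporter that platelets carry, changed by 1.47, -1.52 and 1.4, and *N4BP3* by -0.76, -0.5 and 2.94. *PIGA*, which starts GPI anchors, changed by -2.96, 0.43 and 0.84, whereas another probe of the gene changed by 1.76, 0.36 and -0.01. *HTR1E* changed by -3.25, 0.33 and 0.17, whereas its other probe changed by -2.18, -0.47 and 1.11. By that probe horses 32 and 41 moved in opposite directions. *GARNL3*, *HARS2*, *TMEM218* and *LRRC66* completed the group.

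**Figure D5:**
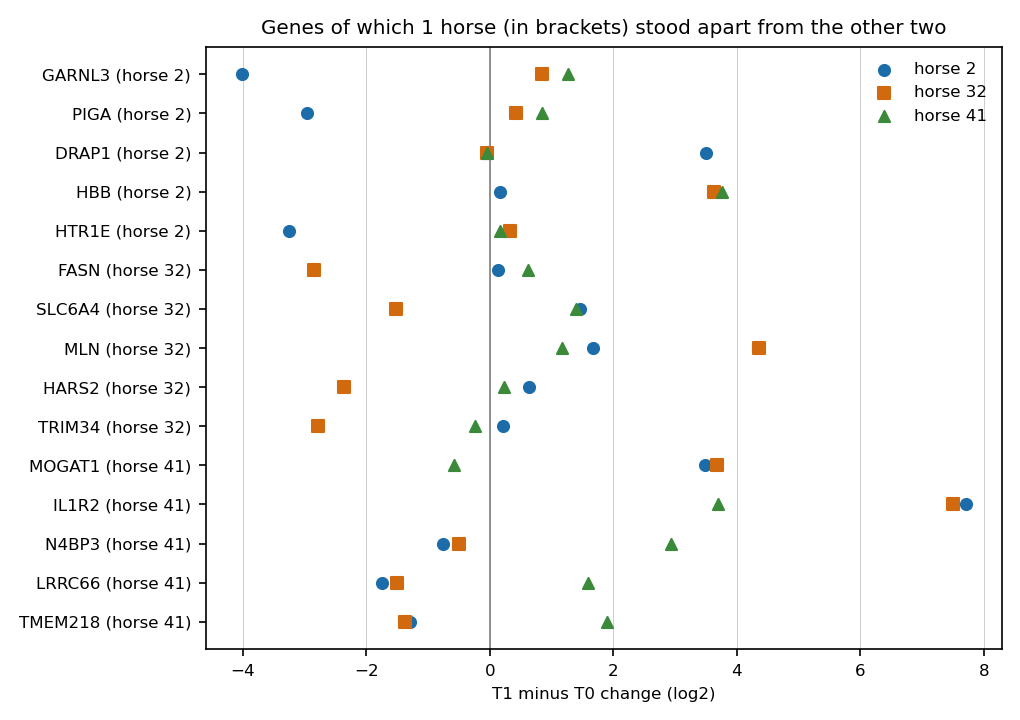
Change (T1 minus T0, log2) in each horse of the 15 genes in which a single horse lay farthest from the mean of the other two, where the changes of the other two lay within 0.5 of each other. *HBB* shows horse 2 at 0.16 and the other two at 3.63 and 3.76, and *MOGAT1* shows horse 41 at -0.58 and the other two at 3.48 and 3.68.

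Whether the changes of the 3 horses held in other animals was asked of the validation set, in which T0 and T1 came from different horses. Of its 7 horses at T0, 3 were females, and of its 13 at T1, 3 were, and the study describes many of the horses measured at T0 alone as eliminated later in the ride. The part of sex in the differences was not tested, and that of finishing the ride cannot be told apart from the time point. There, 7687 of 17403 gene names (44.2%) passed. Of the 1744 genes called in the training set and tested in the validation set, 1676 (96.1%) passed in the same direction and 0 in the opposite one. All 20 of the largest changes passed with the same sign. *CD163*, *FCER1A*, *ISG15* and *HRH4* had no overlap between the 7 horses at T0 and the 13 at T1. The share of all gene names without overlap is not given here, so that how common this is cannot be judged. The levels of *CD163* at T0 ran from -1.79 to 2.62 with a median of -0.97, and those at T1 from 2.78 to 5.29 with a median of 3.83. For *FCER1A* they ran from 1.91 to 3.7 with a median of 3.13 at T0 and from -2.33 to 0.31 with a median of -0.68 at T1. The other 16 overlapped, and in *IL1R2* the highest T0 level of 5.56 exceeded the lowest T1 level of 5.44.

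The size of the changes in both sets was compared in a fit of all 26 arrays. For 0 of 17137 gene names (0.0%) did limma find a difference between the sets, and 86 had an unadjusted p under 0.05. Quantile normalization gave 131 such genes, the series values gave 128 and a term for scan day gave 493, again with 0 after adjustment. With 3 horses in the training set the SE of the difference was wide, 1.39 in *IL1R2* and 1.09 in *C1QA*. The absence of calls therefore does not show that both sets changed by the same amount. *C1QA* rose by 6.16 in the training set and by 4.36 (SE 0.58) in the validation set, *IL1R2* by 6.3 and 6.06 (SE 0.62), and *CD163* by 4.29 and 4.19 (SE 0.47). *HSPA6*, an inducible heat shock gene called in the training set and above the background mark in 1 horse at T0 there, had a change of -0.023 (SE 0.59, adjusted p = 0.979) in the validation set. *HBB*, in which horse 2 stood apart, rose by 2.25 (SE 0.69, adjusted p = 0.0115) there, and *MLN* by 3.05 (SE 0.53, adjusted p = 0.000135).

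Scan days crossed the horses. Among the 6 training arrays, day 1 held horse 2 at T1 and horse 32 at T0. Day 6 held horse 2 at T0 and horse 41 at T1. Horse 32 at T1 and horse 41 at T0 shared a day with no other training array. Validation arrays were scanned on days 1, 6 and 7 as well. Within day 1, 1772 of the 1777 called genes had the sign of the fit, and within day 6, 1765 had. Each day compares different horses, and these 4 arrays were among the 6 on which the genes were called, so that the sign was largely fixed by that choice and the part of scan day was not tested by it. The values within the 2 days were, for *ISG15*, -3.19 and -1.96, for *C1QA* 6.70 and 6.01, and for *FCER1A* -2.11 and -5.67.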

How the data were processed

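Whole-blood RNA of horses 2, 32 and 41 at T0 and T1 was hybridised to custom Agilent equine arrays of 1 colour. The deposited scanner files hold spot intensities that, per the file headers, Feature Extraction 10.7.3.1 had corrected for background. The series table holds log2 values that the authors had normalized between arrays, as their nearly equal quantiles show. The submitters' notes name limma with no version. Gene names came from the array and, where an accession or gene ID matched, from RefSeq: 14711 of 24415 gene names received a symbol.

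Control spots and outlier spots (190, of which 131 on horse 41 at T1) were left out, and no spot was saturated. The log2 intensity minus the array's 75th percentile over all non-control spots was taken, and the brightest probe stood for a gene name. Of 3 ways to take that percentile, the one that matched an earlier analysis of these data was kept with its outcome known. T1 and T0 were compared in limma 3.58.1 (R 4.3.3, statmod 1.5.0, data.table version 1.17.8) with the horse as a block and Benjamini-Hochberg adjustment at 0.05. The labels pair the arrays by horse, and the deviations of the 2 arrays of a horse from the group means correlated at -0.0087, 0.21 and 0.19. All 26 arrays were fitted with duplicateCorrelation for the comparison between sets. Tables and figures used Python 3.11.15, numpy 2.4.6, pandas 2.3.3 and matplotlib 3.10.9. On simulated data of 17486 genes the paired fit recovered 96 of 100 genes changed by 2 and 100 of 100 changed by 3 on the log2 scale, with 20 false calls. Whether this recovery holds for the arrays themselves, where the horses changed by different amounts, was not tested.

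The genes named were the 10 largest rises and 10 largest falls, the 2 members of each list with the smallest adjusted p plus other members needed, the 10 largest opposite changes, and for each horse the 5 genes in which it stood farthest from the other two. The horses, the lists and this rule were chosen with earlier results of these data known. Genes with close copies (serum amyloid A, CD1, granzymes, killer lectin receptors, MHC, globins, IFIT, GBP, *CXCL1* and *CXCL2*) are uncertain. Alternatives were quantile normalization, normexp followed by quantile normalization, the series values, other filters, the mean of probes, no block, scan day, all 26 arrays, and each horse left out. Some genes of the lists are counted but not reported here by name.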

Additional observations from a re-analysis of the deposited data

Results flagged for a closer look

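In 9 of the 20 genes with the largest changes, 1 of the 7 validation horses at T0, always horse 47, lay far from the other 6. In separate groups such a distance arises by chance in about 1 in 20. Here all 9 come from 1 array, and genes are not independent of each other. The 9 of 20 can therefore not be set against that rate. Its levels were 5.56 for *IL1R2*, 1.58 for *TGM3*, -0.98 for *C1QC*, -0.85 for *CLU*, 0.88 for *NR2E1* and 0.93 for *MMP27*, above the other T0 horses. For *ISG15* (2.90), *LAMP3* (-3.73) and *GBP5* (1.73) it lay below them. In all 9 genes horse 47 lay on the side towards T1. Groups of 3 arrays, as in the training set, were too small for this comparison.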

How the results depend on the processing

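The 1777 changed genes became 2994 with all 26 arrays in the fit, 2842 with the filter on all 6 arrays and 46 without a filter, and between 173 and 2982 when a horse was left out, the lowest without horse 2 and the highest without horse 41. Without the replicate block the count was 1785, of which 1388 were shared. Among the 20 largest changes, all passed with quantile normalization, normexp, the series values, the filter on all 6 arrays, the mean of probes and no block, while 14 did not pass without a filter, 7 without horse 2, 1 without horse 32, 1 with all 26 arrays and 4 with scan day added to that fit. Scan day as a block in place of the horse gave 1597, but 0 (5856 at an unadjusted p under 0.05) with the 75th percentile taken over unflagged spots, where none of the 20 passed, and 1216 with it taken over averaged probes, settings chosen after seeing the data, so that this count supports nothing. Without scan day, those percentiles gave 1798 and 1854. Opposite changes of at least 1 numbered 20 with normexp and quantile normalization and 25 with the series values in place of 210. Cytosolic ribosomal falls rose from 1 to 28 with normexp and quantile normalization and 32 with the series values. The cause of these differences was not tested.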
